A study of Drosophila melanogaster with 2 samples.

Results

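Exonic ADD1-GFP calls outside promoters are the regions described here. A call is 1 region that the authors' peak caller listed in chromatin immunoprecipitation followed by sequencing (ChIP-seq), and its summit is the position given as its strongest point. Members were chosen by position alone, as pooled calls on chromosome arms 2L (before 22 Mb), 3L (before 23 Mb) and 3R (from 4.2 Mb) whose summit lay more than 500 bp from every annotated transcript start, inside an annotated exon and in no transposable element. This gave 1291 members of 30000 pooled calls, or 8.22% of the 15700 calls on those arms. By the kind of exon at the summit, 496 were in coding exons, 145 in 5′ untranslated regions (UTRs), 484 in 3′ UTRs and 166 in exons of non-coding genes (160 in non-coding RNA genes and 6 in pseudogenes).

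Chromatin came from whole Drosophila melanogaster embryos of mixed sex, 0 to 16 h old, of the line ADD1-MiMIC-GFP. In that line an eGFP exon sits in an intron of ADD1, so the endogenous locus drives the tagged protein in whatever cells transcribe it. The precipitation used an antibody to GFP according to the sample descriptions, while the antibody field of the labels names CG8290, which is the systematic name of ADD1. Sonicated fragments measured 200 to 800 bp. The libraries form 1 group of 2 biological replicates, numbered 1 and 3, called against a shared control file. There is no second group and the control was not analysed here, so no test between conditions was possible, and signal common to any precipitation cannot be told apart from ADD1 binding.

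ADD1 has an ADD domain like the one with which mammalian ATRX reads the tail of histone H3, and in flies it is known as a partner of the heterochromatin protein HP1a. Coding exons hold the codons of a gene. Its 5′ UTR lies between the transcript start and the first codon, and its 3′ UTR between the stop codon and the polyadenylation site. The irreproducible discovery rate procedure (IDR) keeps regions whose ranks hold between replicates. The kept list was the 4402 strongest pooled calls by the signal value of the caller, so being kept and having a high rank (1 is the strongest) are the same ordering seen in different ways. Calls are not replicates and often neighbour each other (53.2% of members had another call summit within 1000 bp), so shares carry exact binomial intervals at 95% that cover counting error only, and no p-value is given.

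Strong members of each kind show the sequence under such calls. The 30 bases around the summits of some of the strongest coding, 3′ UTR, 5′ UTR and non-coding members are given on the plus strand of dm6 (RefSeq release 6), with wg added as a developmental signalling gene. Capitals mark AAGCAG or its reverse complement CTGCTT, letters picked out after these sequences were read. The wg call ranked only 3581. Stronger members without these letters, among them Task6 (rank 792) and JIL-1 (rank 891), are not shown, so the block does not tell how common the letters are.
InR, coding exon, chr3R:21580266-21580295: actgctatacgcttcttcaCTGCTTgcggg
Pde1c, coding exon, chr2L:11816562-11816591: gccgcagcgccatctgccggctccgcagct
klar, coding exon, chr3L:506212-506241: agttcgtttgaatggccgcccagaggtcgt
pros, 3′ UTR, chr3R:11403092-11403121: agcagtgtagtcgAAGCAGggaagtaagca
pros, 3′ UTR, chr3R:11392993-11393022: cgaccgactttccggtAAGCAGtttccacc
Antp, 3′ UTR, chr3R:6908253-6908282: ctaatatcAAGCAGgaaacacaatataaag
lwr, 3′ UTR, chr2L:540690-540719: tagaaaaatattgtggcatccctaataaaa
wg, 3′ UTR, chr2L:7315709-7315738: aCTGCTTgcataCTGCTTtgggcaggacca
ush, 5′ UTR, chr2L:490245-490274: tatgccttgcaagcggtgtgaaagcgccaa
lncRNA:CR46035, non-coding exon, chr3R:17704391-17704420: aaattattgtttctgatcaagtcactcatc
lncRNA:CR44363, non-coding exon, chr3L:11406052-11406081: ttggtatttatttttaagagatctcaaaga
lncRNA:CR43334, non-coding exon, chr3L:634784-634813: gcgttttaaagggagaactatttaatggaa

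Exonic calls were kept less often than other calls, and coding exons had the lowest share of all. IDR kept 73 of the 1291 members (5.65%, interval 4.46 to 7.06%), against 16.7% of all pooled calls on the same arms and 14.7% of all 30000 pooled calls. Of coding calls, 12 of 496 were kept (2.42%, 1.26 to 4.19%). Of 3′ UTR calls, 21 of 484 were kept (4.34%, 2.71 to 6.56%), with an interval that overlaps that of coding calls, and on 3L alone the 3′ UTR share (1.19%, 2 of 168) was below the coding share (2.42%, 4 of 165). Of 5′ UTR calls, 14 of 145 were kept (9.66%, 5.38 to 15.7%). Exons of non-coding genes had 26 kept of 166 (15.7%, 10.5 to 22.1%), near the 16.7% of all calls on the arms in the pool, but not in the replicates. Introns on the same arms had 631 of 5884 kept (10.7%, 9.94 to 11.5%) and intergenic sequence 346 of 3117 (11.1%). The intervals of coding and 3′ UTR calls lay below both of these shares, and that of 5′ UTR calls spanned them.

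The same order came out in each replicate's own list of 30000 calls, where the 4402 strongest calls were taken as the counterpart of the kept ones. They made up 16.4% of the calls on the 3 arms in replicate 1 and 16.7% in replicate 3. Among coding calls the share was 1.01% (7 of 690) in replicate 1 and 2.30% (11 of 479) in replicate 3. Among 3′ UTR calls it was 4.05% (21 of 518) and 4.79% (23 of 480). The 5′ UTR shares were 10.1% and 7.35%, and those of non-coding exons 10.5% and 12.2%. In replicate 1 the 5′ UTR and non-coding shares were nearly equal, so the order of these 2 classes is not resolved. Introns gave 10.6% and 10.7%. Non-coding exons thus lay nearer to introns than to all calls on the arms in both replicates, unlike in the pool. Coding calls lay below 3′ UTR calls, and these below 5′ UTR and intronic calls, in both replicates.

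**Figure D1:**
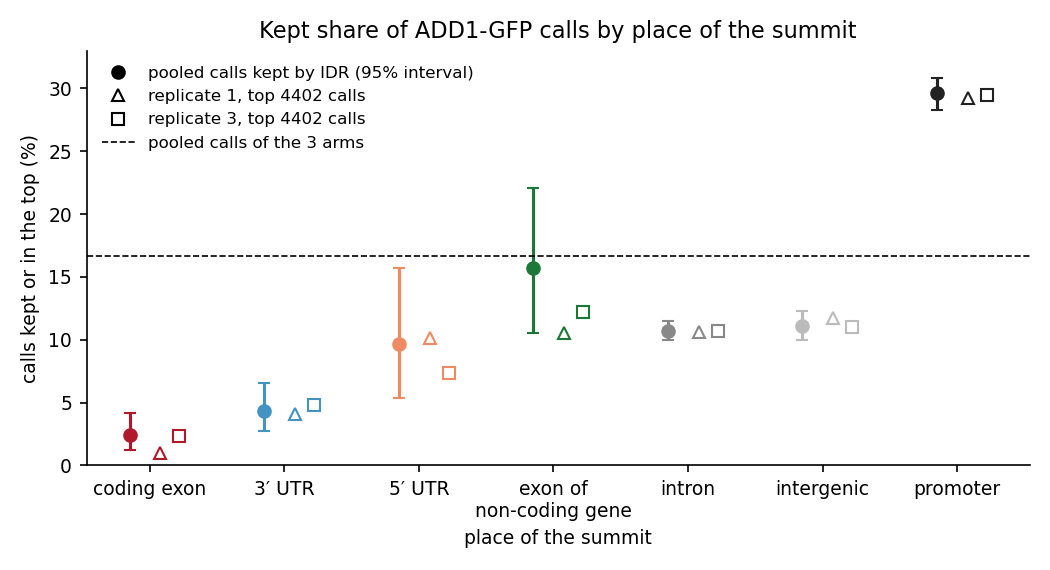
Share of calls kept by IDR in the pooled list (filled circles, bars are 95% exact binomial intervals) and share among the 4402 strongest calls of replicate 1 (triangles) and replicate 3 (squares), in percent, by the place of the summit. Coding exons sit lowest at 2.42% and promoters highest at 29.6%, and the dashed line marks the 16.7% of all pooled calls on the 3 arms.

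The ranks tell where in the list these calls lie. The median rank among 30000 was 21408 for coding calls, 19390 for 3′ UTR calls, 16350 for 5′ UTR calls and 14276 for non-coding exons. Intronic calls had a median rank of 16348, promoter calls 8714. In the replicates, the median rank of coding calls was 20914 and 21413 (mean 21163 ± 353, SD, n = 2) and that of 3′ UTR calls 18820 and 19554 (mean 19187 ± 519). The gap between these classes was larger than the spread between replicates. The 5′ UTR calls had median ranks of 14651 and 14118, non-coding exons 15974 and 15011, and introns 16342 and 16459. The order of 5′ UTR and non-coding calls thus turned between the pool and both replicates, and 5′ UTR calls, level with introns in the pool, ranked ahead of them in each replicate. Of coding calls, 57.5% lay in the last 10000 ranks, against 47.9% of 3′ UTR, 31.0% of 5′ UTR and 31.7% of all calls on the arms. The 500 strongest pooled calls held 9 of the 1291 members, of which 2 were coding, 4 in 3′ UTRs, 3 in non-coding exons and 0 in 5′ UTRs. They held 319 of all 15700 calls on the arms, with 57 of 5884 intronic and 218 of 5294 promoter calls. By class these counts are too small to compare.

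**Figure D2:**
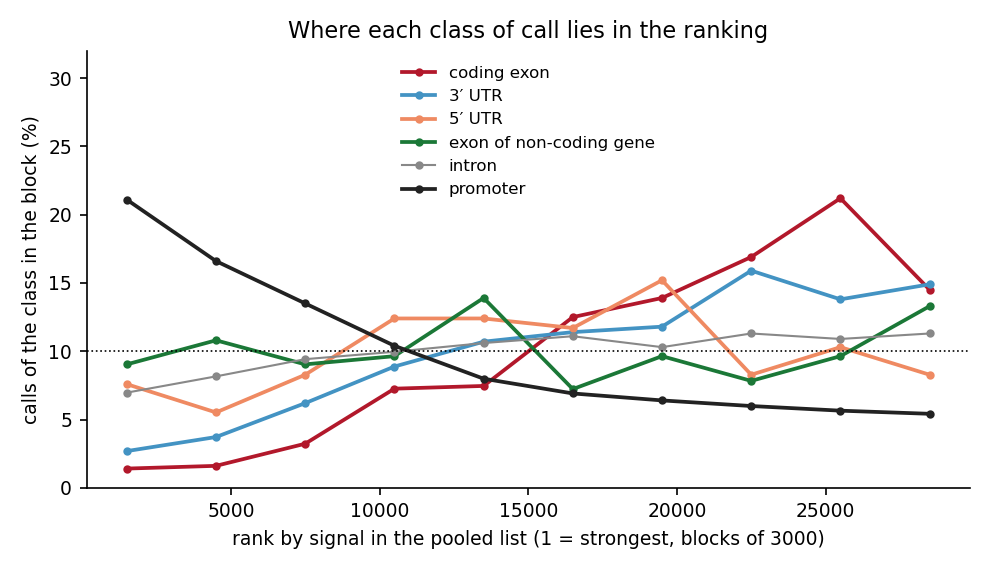
Share of the calls of each class, in percent, that fell in each block of 3000 ranks of the pooled list, from the strongest on the left to the weakest on the right. The dotted line marks 10%, an even spread. Coding calls go from 1.41% in the first block to 21.2% in the block from rank 24001, while promoter calls go from 21.1% to 5.65%.

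Coding exons were also sparsely called for their length. On the 3 arms, coding sequence outside promoters and transposable elements covered 11.3 Mb, or 15.5% of the bases, and held 3.16% of the calls. That is 43.8 calls per Mb, 0.203 times the 215 calls per Mb of the arms as a whole. The 3′ UTRs (3.35 Mb) had 144 calls per Mb, the 5′ UTRs (0.476 Mb) 305 and non-coding exons (0.645 Mb) 257, beside 223 in introns. Of kept calls, coding sequence had 1.06 per Mb, 3′ UTRs 6.27, 5′ UTRs 29.4, non-coding exons 40.3 and introns 23.9. In proportion, coding calls differed in number between the replicates more than the other classes, with 60.9 per Mb in replicate 1 and 42.3 in replicate 3 (mean 51.6 ± 13.2, SD, n = 2). The 3′ UTRs had 155 and 143 per Mb, and introns 221 and 225. Read depth is unknown for either library, and its part in this difference was not tested.

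**Figure D3:**
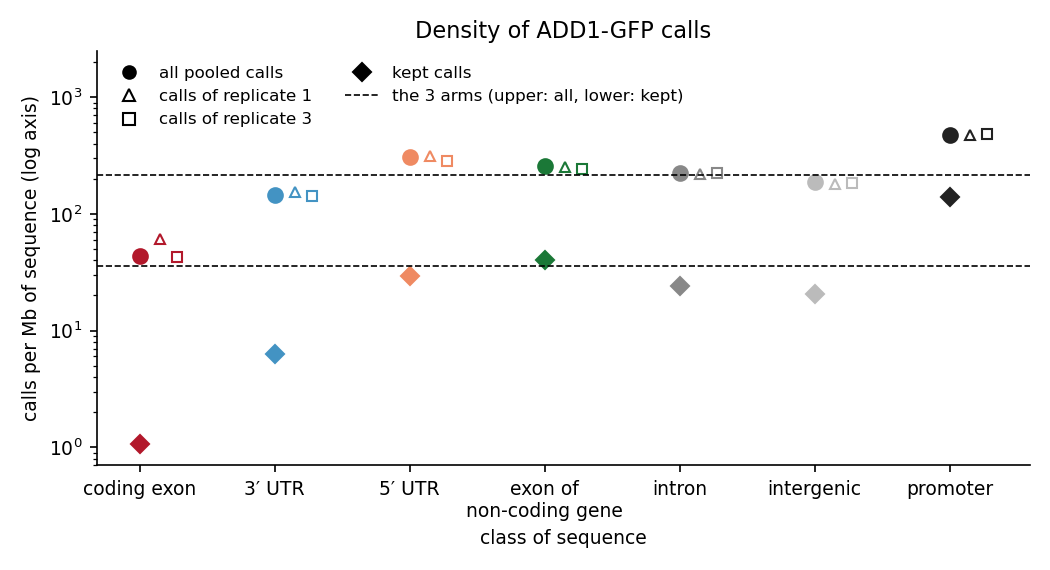
Calls per Mb of each class of sequence on a log axis, for all pooled calls (circles), calls of replicate 1 (triangles) and replicate 3 (squares), and kept calls (diamonds). Dashed lines mark the 3 arms as a whole, 215 calls and 35.9 kept calls per Mb. Coding sequence is lowest in all calls (43.8) and in kept calls (1.06).

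Distance from gene starts and base composition differ between the classes, so the shares are given within ranges of each. From 501 to 1000 bp of a start, 2.35% of 170 coding, 2.04% of 98 3′ UTR and 12.7% of 905 intronic calls were kept. Between 1000 and 2000 bp the coding share was 1.79% and the 3′ UTR share 6.99%. Coding, 3′ UTR and intronic shares were, beyond 5000 bp, 5.08% (3 of 59), 3.75% and 9.57%. The coding share thus lay above the 3′ UTR share in the nearest and farthest ranges, on few kept calls. The 5′ UTR calls lay closest to a start, at a median of 900 bp, and their share was 9.88% from 501 to 1000 bp and 9.52% from there to 2000 bp. GC content within 100 bp of the summit averaged 48.8% ± 7.53 (SD over 496 calls) in coding calls and 36.3% ± 6.37 in 3′ UTR calls, against 39.0% in all calls on the arms. Annotated coding windows averaged 51.7%, above the called ones, and within 200 bp the means were 50.6% and 46.8%. The SD is a spread over single calls and not the error of a mean. Among windows of 45 to 50% GC, 1 of 122 coding calls (0.820%, 0.0208 to 4.48%) and 54 of 850 intronic calls (6.35%, 4.81 to 8.21%) were kept. At 50% or more, the shares were 3.21% (7 of 218, 1.30 to 6.50%) and 6.94% (4.62 to 9.94%), with intervals that overlap. Below 35% GC, 6 of 216 3′ UTR calls (2.78%, 1.03 to 5.95%) and 15.2% of 1935 intronic calls were kept. From 35 to 40% GC these shares were 4.14% and 10.8%, and from 40 to 45% they were 5.33% (1.47 to 13.1%) and 7.82%. At higher GC the 3′ UTR shares lay above the intronic ones, on few calls. They were 9.09% (3 of 33, 1.92 to 24.3%) at 45 to 50% GC and 13.3% (2 of 15, 1.66 to 40.5%) at 50% or more.

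Few coding members were both strong and wholly inside exons. Calls were mostly 424 bp wide, and 55.0% of all members lay entirely in annotated exons, with 38.1% of coding and 73.8% of 3′ UTR members. Of the 12 kept coding calls, 3 were wholly exonic, and the median exonic part of the 12 was 68.3%. Another kept summit lay within 1000 bp of 4 of the 12, against 59 of all 496 coding members (11.9%). Some kept coding calls thus border other kept peaks. By exon, 8 of the 12 were internal, 3 in the last and 1 in the first exon of the transcript with the longest coding part. Among all coding members these numbers were 285, 139 and 38, with 34 in genes of 1 exon.

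InR, which codes for the insulin receptor, held the strongest coding call. Its pooled signal was 378 (rank 203), and the matching calls ranked 240 in replicate 1 and 215 in replicate 3. The call was 200 bp wide, wholly exonic, in exon 4 of 13 and 9910 bp from the nearest start, and no other kept summit lay within 10574 bp. Pde1c, a cyclic nucleotide phosphodiesterase gene, followed with signal 302 (rank 383, and 380 and 434 in the replicates) in its last exon, again wholly exonic. Of the Pde1c call 60.3% was coding sequence, against 100% of the InR call. These 2 calls, whose sequences are shown above, were the only coding members narrower than 424 bp, and each had similar ranks in pool and replicates. Narrow width went with strong calls on the arms in general, where 335 of 338 narrower calls were kept, or 12.8% of the kept calls.

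The other kept coding calls were weaker and less even. The klar gene, whose product anchors nuclei to the cytoskeleton, held a call at rank 857 (1436 and 589 in the replicates) and another at rank 4387, the last member inside the kept list (4844 and 4967). The next were CG10357 (rank 969, replicates 1337 and 765) and scrib, a cell polarity scaffold gene (1557, replicates 2637 and 1178). The l(3)mbn call (rank 1720) had no match in replicate 1, lay 16 bp from the exon's edge and was 38.0% exonic. In gish, a casein kinase gene, the kept coding call (rank 2062) lay 11 bp from an exon edge and 237 bp from another kept summit. The gustatory receptor gene Gr39b came at rank 3536 (replicates 2789 and 4822). Syt1, the synaptic calcium sensor synaptotagmin, held a call at rank 3801 that lay 204 bp from another kept summit. Its replicate ranks of 121 and 2303 are those of the strongest overlapping call, which can belong to that neighbour. Tim17b1, a mitochondrial translocase subunit gene inside mtd, came at rank 3822 (replicates 6643 and 2987), and CG15140 at rank 4213 (replicates 6829 and 2918). Coding calls therefore ranged from 2 that stood among the strongest in both replicates to 5 that were not among the 4402 strongest of both.

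The strongest 3′ UTR calls were at pros and Antp, which code for developmental transcription factors. The gene prospero (pros), a homeodomain regulator of neural fate, had 4 members in the 3′ UTR of its last exon and 2 were kept. The first had signal 426 (rank 149, replicates 131 and 174), the next 281 (rank 460, replicates 372 and 684), and they lay 10099 bp apart. The other pros members ranked 18086 and 26788 and neither was matched in replicate 1. Antp, a Hox gene, had signal 399 in its 3′ UTR (rank 178, replicates 124 and 303), where the gene CG46458 spans the same bases. The gene lwr, which codes for the SUMO-conjugating enzyme, had 2 overlapping kept calls 204 bp apart (ranks 349 and 824). CG33307 ranked 853 (replicates 1883 and 570), inside CenG1A. Weaker kept calls were in the 3′ UTRs of Tctp (a growth regulator, rank 1653), Lam (the B-type lamin, 2640) and wg (the Wnt ligand Wingless, 3581, replicates 4132 and 3634). Bsg was just outside at rank 4409, beside klar at 4387 just inside.

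In 5′ UTRs the strongest call was at ush, a GATA cofactor gene, with signal 249 (rank 637, replicates 519 and 851). Task6, a potassium channel gene, came next at rank 792 (replicates 564 and 1149), with its summit 3 bp from the exon's edge. JIL-1, the kinase of histone H3 on interphase chromatin, ranked 891 (replicates 901 and 935), 543 bp from a start and therefore just outside the promoter limit. The cell fate determinant numb ranked 1702, Wdr62 ranked 1832 and Su(Tpl), an elongation factor gene inside Mi-2, ranked 2348. Of the 14 kept 5′ UTR calls, 9 were in genes that also had a kept peak at a start, against 66 of all 145.

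Non-coding exons held the strongest member of all. The call in lncRNA:CR46035 had signal 473 (rank 109, replicates 153 and 82), and this RNA gene lies inside osa, which codes for a subunit of the Brahma remodelling complex. The call in lncRNA:CR44363 ranked 284 (replicates 415 and 229). Of the 26 kept non-coding members, 9 lay inside another gene, against 38 of all 166 non-coding members (22.9%). Among the 9 were calls in lncRNA:CR45940 inside nkd (rank 1913) and lncRNA:CR44331 inside puc (rank 2917). Because the assignment is by overlap, such a call cannot be told apart from one in an intron of the surrounding gene. A further kept call was in lncRNA:Hsromega, the heat shock RNA gene (rank 2887, replicates 3388 and 2807).

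The gene with most members was lncRNA:CR43334, with 11 members in its exon, 5 of them kept. It spans chr3L:628435-643900 and contains mir-ban, the gene of the growth-promoting microRNA bantam. The strongest call, with signal 320 (rank 324, replicates 346 and 337), lay 7409 bp before mir-ban. Among the kept members, the closest to mir-ban had signal 217 (rank 923, replicates 2073 and 533) at 1475 bp. The other kept members ranked 2199, 2842 and 3819, and the member after mir-ban, at 631 bp, ranked 21511. Another kept summit, which is no member, lay 216 bp from that last one and so also after mir-ban. Most of the exon lies before mir-ban, which starts at 642208. Replicate ranks were 2360 and 1953 for the pair at ranks 2199 and 3819, which overlap and share their matches.

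**Figure D4:**
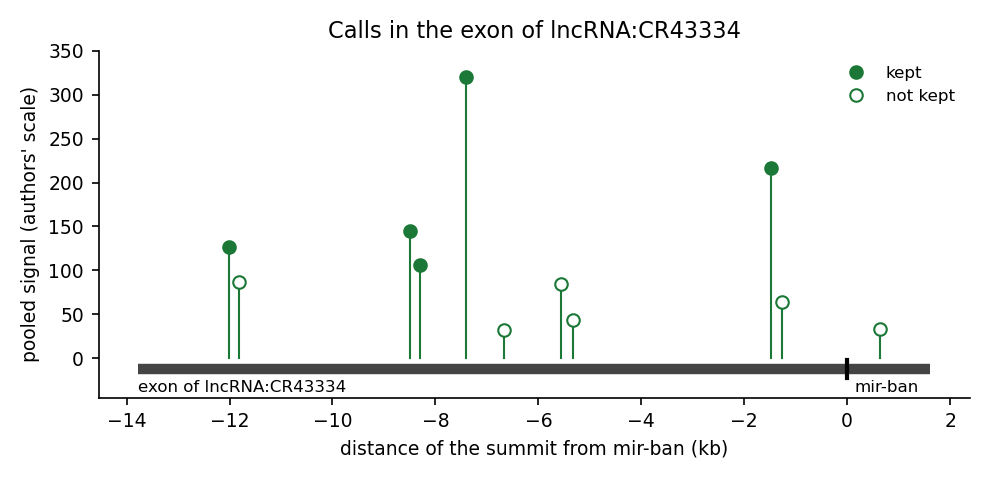
Pooled signal (the authors' scale) of the 11 members in the exon of lncRNA:CR43334 against the distance of their summit from mir-ban in kb, with kept members filled. The bar below marks the exon. All 5 kept members lie on the side before mir-ban, where most of the exon lies, the highest with signal 320. A kept call after mir-ban that is no member is not shown.

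Most host genes had 1 member. The members fell in 946 host genes, of which 731 had 1 and 65 had a kept one. Only lncRNA:CR43334, gish (7 members), pros (4), lwr (3) and klar (3) had 2 or more kept. Many weak calls in 1 gene also occurred. The gene corto, which codes for a chromatin protein, had 10 members, 9 of them in its 3′ UTR, and nmo, the kinase Nemo, had 9. The strongest ranked 7844 in corto and 7249 in nmo, and 0 were kept in either.

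Groups of protein-coding genes differed in how many held a member. Of 8730 protein-coding genes on the arms, 844 had a member (9.67%) and 43 a kept member (0.493%). Of 20 genes of signalling ligands and receptors, 9 had a member (interval 23.1 to 68.5%), with 195 members per Mb of exon outside promoters against 73.4 for all genes, and InR and wg had a kept one. The ligand gene vn was next at rank 6277. The group of giant structural genes had a member in 7 of 18 (38.9%, 17.3 to 64.3%), an interval that overlaps that of signalling genes, with Tm1 (tropomyosin, rank 10932), Msp300 (a nesprin, 11060) and kst (a spectrin, 13432) first and 0 kept. Per Mb of exon they had 28.0 members, below all genes. Of 16 neuronal genes 4 had a member, with Syt1 kept, bru3 at rank 5838 and Rbfox1 at 16085. Of 35 listed developmental transcription factor genes, 4 had a member (11.4%), with Antp kept, and pb (6541) and pnr (9394) not. The list is a sample and leaves out other such genes, among them pros. Per Mb of exon, neuronal genes had 68.6 members and the listed developmental factors 41.0, both below all genes.

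Of 26 listed genes of chromatin proteins, 3 had a member (11.5%), a share near that of all genes, and 0 a kept one, with trx at rank 12512, Trl (GAGA factor) at 22700 and phol at 24105. Their exons outside promoters held 30.6 members per Mb, below the 73.4 of all protein-coding genes. JIL-1, with its kept call, and corto are not on this list. Genes for proteins with 3 or more C2H2 zinc fingers had one in 24 of 150 (16.0%, 10.5 to 22.9%), with ush and cbt kept and crol at 7359. Of 1392 genes with 1 exon, 69 had a member (4.96%), with Tctp and CG10222 kept and Tim17a1 at 5617. Per Mb of exon they had 107 members, above all genes, while C2H2 genes had 92.0. Cuticle genes (0 of 21, up to 16.1%) and heat shock genes (0 of 18, up to 18.5%) had none, and their exons outside promoters covered only 0.0253 and 0.0244 Mb. Genes with a kept peak at a start had an exonic member more often than all protein-coding genes, in 333 of 1964 (17.0%, 15.3 to 18.7%, against 9.06 to 10.3% for all). Per Mb of exon the difference was smaller, at 98.9 members against 73.4.

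Agreement between replicates was lower for coding and 3′ UTR members than for introns, and about level with introns for 5′ UTR and non-coding members. Matching was not compared at like rank. In the last 10000 ranks lay 57.5% of coding and 47.9% of 3′ UTR members, against 36.7% of intronic calls. A replicate call matched when it overlapped by at least 50% of the shorter call, and the strongest match gave the rank. Replicate 1 matched 72.3% of members and replicate 3 66.3%, with 44.6% matched in both. Over all pooled calls of the arms these values were 78.0%, 78.7% and 60.6%. Coding members were matched in 72.8% and 58.1%, with 37.7% in both, and 3′ UTR members in 69.0% and 70.2%, with 218 of 484 in both. The share matched in both was 54.5% for 5′ UTR and 55.4% for non-coding members, beside 55.0% for introns, 53.7% for intergenic and 74.9% for promoter calls. Of the 73 kept members, 51 (69.9%) had a match within the top 4402 of replicate 1 and of replicate 3, against 77.0% of kept calls on the arms. Of kept 3′ UTR members it was 18 of 21 (85.7%), and of kept coding members 7 of 12. Those matched among the strongest of neither numbered 1, the second klar call, and l(3)mbn and dop lacked a match in 1 replicate each.

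**Figure D5:**
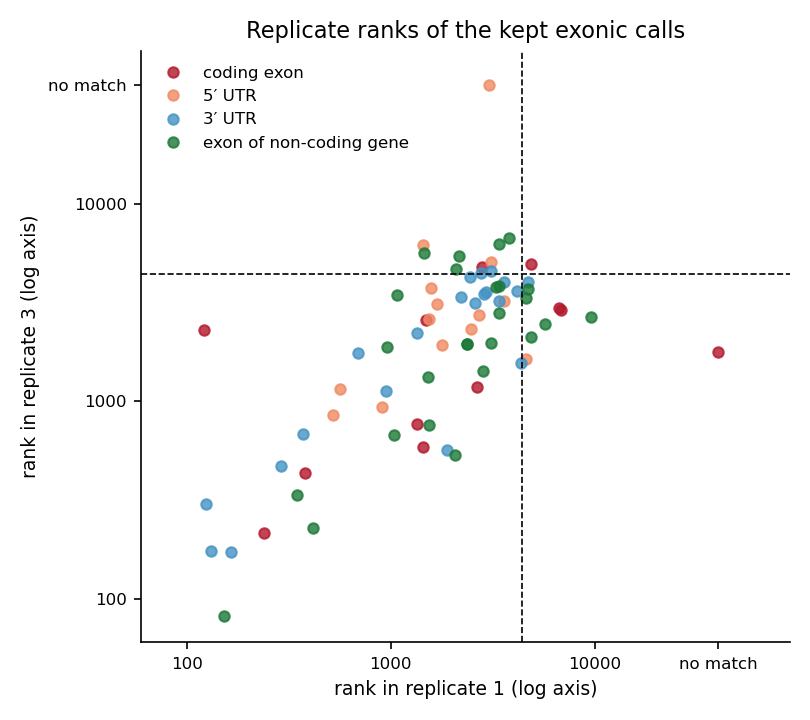
Rank in replicate 1 against rank in replicate 3, both on log axes, of the strongest matching call for each of the 73 kept members, coloured by the kind of exon. Dashed lines mark rank 4402. The 51 calls in the lower left were among the 4402 strongest in both replicates, and 1 call on each margin had no match in that replicate.

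Promoter elements were about as rare at exonic summits as at other summits outside promoters. Motifs were searched within 100 bp on both strands. TATCGATA, the DRE element, was in 6 members (0.465%, 0.171 to 1.01%), beside 0.374% of intronic, 0.513% of intergenic and 6.48% of promoter calls. The M1BP element GGTCACAC was in 5 (0.387%, 0.126 to 0.901%), beside 0.663%, 0.545% and 5.04%. By class, the DRE element was in 1 of 496 coding calls (0.202%) and 0.175% of annotated coding windows, and in 3 of 484 3′ UTR calls (0.620%) and 0.484% of annotated 3′ UTR windows. GAGAG was in 38.6% of 5′ UTR calls (30.7 to 47.1%), above the 26.1% of annotated 5′ UTR windows and the 24.1% of all calls. Of the 14 kept 5′ UTR calls, 3 had it (21.4%, 4.66 to 50.8%). GCGCGC was likewise in 7.59% of 5′ UTR calls (3.85 to 13.2%) and 2.61% of annotated 5′ UTR windows. CAGCAGCAG, which codes for repeated amino acids where it is translated, was in 4.23% of coding calls and 4.84% of annotated coding windows. The A tract AAAAAAAA was in 2.82% of coding calls (1.55 to 4.69%) and 1.39% of coding windows. TCGATA, which lies within the DRE element, was in 8.44% of members and 11.4% of all calls on the arms. The Zelda site CAGGTA was in 4.96% and 4.45%, CACACACA in 4.42% and 4.73%, ATATATAT in 5.42% and 4.40%, and GCGCGC in 2.48% and 2.64%. The A tract was in fewer members (9.91%, 8.34 to 11.7%) than calls on the arms (14.5%). CAGCAGCAG was in more members (2.94%, 2.09 to 4.02%) than calls on the arms (1.36%). The arbitrary octamer ACGTTACG was in 0.310% of members and 0.268% of all calls.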

How the data were processed

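The authors deposited narrowPeak lists on dm6 for each replicate and for the pooled alignments of both, each of 30000 peak and background calls, and the list thresholded by IDR, per the deposited file lists. Neither aligner nor caller is named in the labels or files used, and depth is unknown. The signal is a score deposited by the authors on a scale of its list, so only ranks within a list were compared. The lists on dm3 were not used here.

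Calls were placed by their summit on the Ensembl release 115 annotation, with sequence from RefSeq release 6. A summit in several kinds of exon counted as coding, then 5′ UTR, then 3′ UTR, then non-coding. Placing was checked on 2000 simulated positions, all placed as by a plain scan. Intervals are Clopper-Pearson. C2H2 fingers were counted as C-x(2,4)-C-x(12)-H-x(3,5)-H in the translated longest coding sequence, because no protein table was used here.

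The genes named are the hosts of the 12 strongest coding, 6 strongest 5′ UTR, 6 strongest 3′ UTR and 3 strongest non-coding members, the 3 genes with most members, up to 3 per list and the members beside the IDR limit. Others were named after their values were seen, namely Lam, dop and the genes lncRNA:CR45940, lncRNA:CR44331 and lncRNA:Hsromega. The members, the 7 lists and the motifs were chosen with earlier results of these data known. Alternatives were other promoter reaches, placing rules, annotations, arms, matching rules and windows, the stronger part of the kept calls and each replicate alone. Tools were Python 3.11.15, numpy 2.4.6, pandas 2.3.3, scipy 1.17.1 and matplotlib 3.10.9.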

Additional observations from a re-analysis of the deposited data

How the results depend on the processing

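The order of kept shares, rising from coding through 3′ UTR and 5′ UTR to non-coding exons, was the same in all 12 alternatives. Placing by the middle of the call is no separate check, because the summit of a 424 bp call is its middle and all counts were the same. It is still included in the totals of shares and median ranks below. The step from 5′ UTR to non-coding calls was a near tie without replicate 3 (10.1 and 10.5%) and more than 2000 bp from every start (9.09 and 9.76%). Coding and 3′ UTR shares were also close more than 2000 bp from every start (3.16 and 3.70%). With the stronger 50% of the kept calls they were 1.41 and 1.86%. Within ranges of distance, coding lay above 3′ UTR calls from 501 to 1000 bp (2.35 and 2.04%) and beyond 5000 bp (5.08 and 3.75%). By arm the order held on 2L and 3R but not on 3L, where 1.19% of 3′ UTR calls (2 of 168) and 2.42% of coding calls (4 of 165) were kept. Under the alternatives, 52 of 60 shares stayed within their interval. With the stronger 50% of the kept calls counted as kept, the shares were 2.48% for all members, 3.45% for 5′ UTR, 1.86% for 3′ UTR and 6.63% for non-coding calls. With 1 replicate left out, they ranged from 3.95 to 5.04% for all members and from 1.01 to 2.30% for coding calls. More than 2000 bp from every start, an alternative added after the data were seen, 4.31% of members and 9.76% of non-coding calls (4 of 41) were kept. Without calls that had another kept summit within 1000 bp, also added later, coding calls had 1.83%. Members matched in 75.6% (replicate 1) and 70.7% (replicate 3) with any overlap, and in 60.7% and 54.1% with 80%. The cause of these shifts was not tested, beyond the fewer calls that a stricter rule leaves.

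Of 55 median ranks, 37 stayed within 1 SD between replicates, as did 4 of 10 GC means and 5 of 7 densities, while 5 of 22 motif shares stayed within their interval, since a wider window holds more letters. No paired analysis was possible because there is 1 group. Depth, control and mappability were not analysed here.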

Other observations

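The hexamer AAGCAG was seen near several strong summits and was then counted, so the count is a description of a pattern noticed in the same calls. Within 20 bp of the summit, on either strand, it was in 4 of the 10 members narrower than 424 bp. These are the InR, Antp and 2 pros calls in which it was noticed. It was in 4 of 64 kept members of standard width (6.25%, 1.73 to 15.2%) and in 38 of 1218 members not kept (3.12%). The kept ones of standard width include the wg call, whose sequence is shown above, so that count is not independent of the picking. Among narrow calls that are no members, which were not used to pick it, it was in 13 of 328 (3.96%, 2.13 to 6.68%), beside 3.38% of kept calls of standard width that are no members (75 of 2217, 2.67 to 4.22%) and 2.25% of calls on the arms that are neither members nor kept. Annotated coding windows had it in 2.97% and 3′ UTR windows in 1.81%.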
